A study of Mus musculus with 12 samples.

Results

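Serpins are a family of proteins that mostly inhibit proteases. An inhibitory serpin presents a loop that the protease cuts as a substrate, and the cut serpin then changes shape and holds the protease in an inactive complex. Some members have lost this activity and act as chaperones or signals instead. In the heart, serpins are known from the turnover of matrix, from clotting and complement, and from the response to injury.

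The 8 serpins described here were Serpina3n, Serping1, Serpine2 and Serpinf1, which are secreted, Serpinh1, which stays in the endoplasmic reticulum, and Serpinb1a, Serpinb1c and Serpinb6a, which are mostly intracellular. They are 8 of the 62 genes with a Serpin symbol in a table of 25171 loci. The members were chosen by their symbols, on a list made with the EIIa-tg values of these hearts in view, in which Serpinb1c was among the clearest rises. The EIIa-tg values of the 8 serpins are therefore a description without a test, as are the comparisons that share those hearts, and the members were tested in Myh6-tg hearts only. Earlier results of these data were known when the members were chosen, so this test is not shown to be independent of the choice.

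The hearts came from mice with NOTCH2NLC carrying 98 GGC repeats, placed behind a loxP-flanked stop sequence at Rosa26. All 4 groups of 3 hearts carried this conditional transgene. In EIIa-tg mice the E2a-Cre line removed the stop sequence in all tissues, and EIIa-ctl littermates lacked this Cre. Both EIIa groups were collected at postnatal day 30. In mice labelled Myh6-tg a creERT2 under the Myh6 promoter, which is active in cardiomyocytes, was switched on by tamoxifen. It was given at 75 mg per kg in 3 injections from postnatal day 60, Myh6-ctl mice received the corn oil alone, and both groups were collected at postnatal day 90. The transgene's own transcript was not analysed here.

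Reads counted on genes came to between 38343106 and 50969834 per heart. At this depth 3 counts, the floor used here, correspond to 0.0589 to 0.0782 CPM, a unit of counts scaled to the total of a heart, which covers counting error only. All 8 cardiomyocyte markers were well detected in every group. Calls in EIIa-tg hearts rested on single hearts, which holds for each count of a list in that model given here. Of 2527 genes called there, edgeR called 0 when replicate 1 of either group was left out, 1 without EIIa-ctl replicate 3 and 133 without EIIa-tg replicate 3. The number was 1794 without EIIa-ctl replicate 2 and rose to 4079 without EIIa-tg replicate 2. Beside the marker counts here and below, 17.0% of all genes tested were called in EIIa-tg and 18.3% in Myh6-tg hearts, in either direction. Called higher were 1289 of 14908 genes in EIIa-tg and 1370 of 15298 in Myh6-tg hearts. Of the lists of other cell types, hepatocyte markers summed to no more than 7.46 CPM and none was called. Endothelial markers were called lower for 3 of 6 in EIIa-tg hearts and mural cell markers for 2 of 6 in Myh6-tg and 1 of 6 in EIIa-tg hearts. The 2 mural calls in Myh6-tg hearts became 1 without any 1 of the 6 hearts but Myh6-ctl replicate 2, and with the replicate block. For Myh6-tg hearts edgeR called 0 of 6 endothelial markers, with 3 at an unadjusted p under 0.05 and 3 called by DESeq2. Of 4 mast cell markers tested, 1 was higher and 1 lower in EIIa-tg hearts, and edgeR and DESeq2 called 0 in Myh6-tg hearts, with 0 at an unadjusted p under 0.05. Adipocyte markers had 0 calls by either tool in both models, with 1 at an unadjusted p under 0.05 in EIIa-tg hearts. Myh6-tg replicate 1 stood apart from the other Myh6-tg hearts, with a chi-square per gene of 256 and 307 against them, where replicates 2 and 3 differed from each other by 37.6. Counts of Y-linked genes were above 2 only in replicate 1 of each group. Esr1, whose ligand-binding part is used in creERT2 constructs, had between 53433 and 103037 counts in Myh6-ctl hearts and between 53 and 116 in Myh6-tg hearts, near the 15 to 54 of EIIa hearts, which carry no creERT2. The hearts labelled as tamoxifen-treated creERT2 mice thus had no raised Esr1 count, which goes against what the construct in their label implies. Myh6-tg and Myh6-ctl below mean the hearts so labelled, and each direction in this model rests on these labels. In whole hearts, fewer cells of a type and less RNA per cell cannot be told apart either.

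All members lie on GRCm38 as protein-coding genes with 5 to 9 exons in their longest coding transcript. Serpina3n (ENSMUSG00000021091) is at chr12:104406729-104414329, Serping1 (ENSMUSG00000023224) at chr2:84765387-84775444, Serpine2 (ENSMUSG00000026249) at chr1:79794197-79861180 and Serpinf1 (ENSMUSG00000000753) at chr11:75409769-75422701. Serpinh1 (ENSMUSG00000070436) is at chr7:99345376-99353239. The clade B genes share chromosome 13, with Serpinb1a (ENSMUSG00000044734) at chr13:32842092-32851185, Serpinb1c (ENSMUSG00000079049) at chr13:32881434-32898211 and Serpinb6a (ENSMUSG00000060147) at chr13:33917918-34002794. Serpina3n is on the plus strand and the other members are on the minus strand.

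Serpinb1a and Serpinb1c are close copies, so their counts depend on reads being placed by the bases that differ. Their coding sequences of 1137 and 1125 bases were 89.7% identical over 1121 aligned bases, with 115 differing. The 30-base stretch with the most differences, 9 bases, lies in the last exon of both genes, exon 7 of 7. It is printed because it shows what tells the closest pair of members apart, with the differing bases in capitals. It covers chr13:32843133-32843162 in Serpinb1a and chr13:32882145-32882174 in Serpinb1c, GRCm38, minus strand, read 5′ to 3′ along the transcript.
Serpinb1a: TTcattgatgtcCACgtcaaaCtgcccCGG
Serpinb1c: AAcattgatgtcTGTgtcaaaTtgcccAAA
Of all 50-base stretches of the longest coding transcript, 3.42% of Serpinb1a and 6.63% of Serpinb1c occurred unchanged in a transcript of another gene. The share was 6.90% for Serpina3n and 2.68% for Serpinb6a, and 0% for the other 4 members. At 150 bases, the length of the reads, it was 0% for each of the 8 members.

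Levels were compared between genes on the FPKM scale, which is scaled to transcript length. In EIIa-ctl hearts Serpinh1 was the highest member at 99.0 ± 16.2 FPKM (SD, n = 3), followed by Serping1 at 71.9 ± 9.72 and Serpinb6a at 60.5 ± 6.64, and the ranges of these last 2 overlapped. Serpinf1 stood at 20.7 ± 4.02 FPKM and Serpine2 at 11.2 ± 1.35. Serpina3n, at 2.98 ± 1.05 FPKM, overlapped Serpinb1a at 2.43 ± 0.760, and Serpinb1c was the lowest at 0.135 ± 0.0618. In Myh6-tg hearts the order was another: Serpina3n came first at 415 ± 63.0 FPKM, overlapping Serpinb6a at 289 ± 67.5, which in turn overlapped Serping1 at 288 ± 43.0. Serpinh1 stood lower there, at 73.0 ± 21.2 FPKM, and its range overlapped those of Serpinf1 at 158 ± 75.4 and Serpine2 at 46.1 ± 24.98. Serpinb1a at 39.6 ± 34.3 FPKM overlapped Serpine2, and Serpinb1c remained the lowest at 6.62 ± 0.867.

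**Figure D1:**
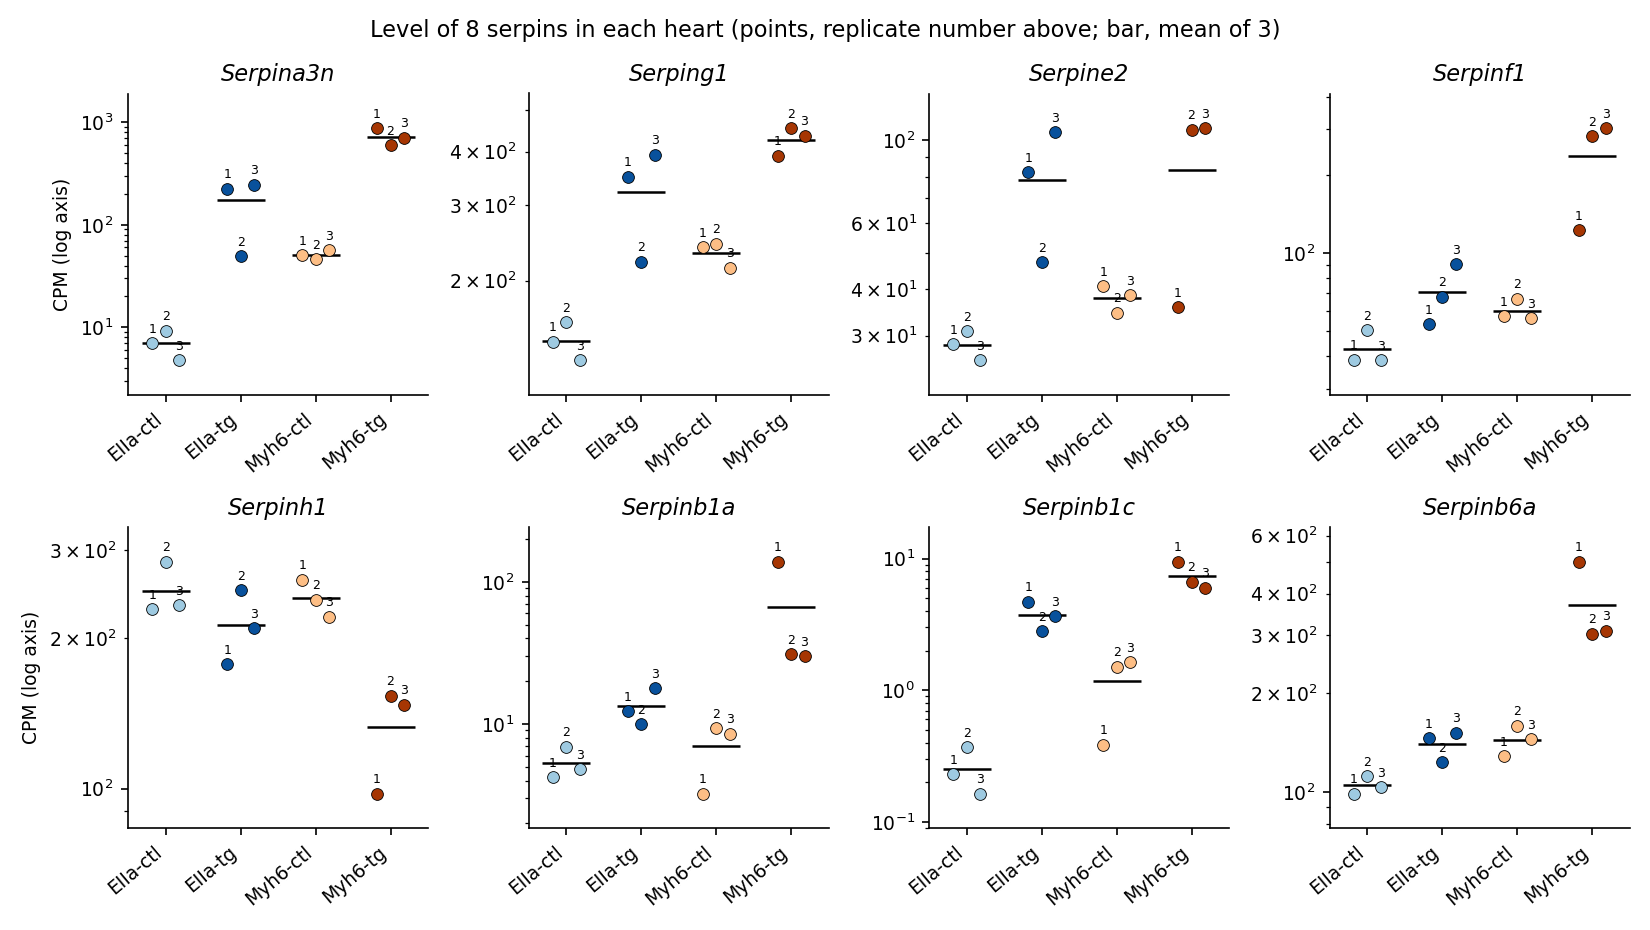
Level of each of the 8 serpins in CPM, scaled by TMM over the 12 hearts, on a log axis that differs between panels. Points are hearts with the replicate number above, and bars are means of 3 hearts. Serpina3n is at 4.79 to 9.27 CPM in EIIa-ctl and 49.4 to 245 CPM in EIIa-tg hearts. It is at 46.4 to 56.6 CPM in Myh6-ctl and 595 to 873 CPM in Myh6-tg hearts. Serpinh1 is lowest in Myh6-tg hearts.

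In Myh6-tg hearts 6 of the 8 serpins rose and 1 fell against Myh6-ctl hearts at an adjusted p under 0.05, by edgeR's quasi-likelihood test with Benjamini-Hochberg adjustment over 15298 genes. All 8 passed the filter on low counts, and they were chosen with earlier results of these data known. Over all genes tested 18.3% were called in either direction and 8.96% were called higher. The median log2 fold change was 1.69 over the 8 members and 0.03 over all genes. Genes are called DEGs here by the stricter thresholds of the study, a change of at least 2-fold at an adjusted p under 0.01. Of the members 1 was a DEG, Serpina3n, as were 3.97% of all genes. The number of member DEGs was 5 with DESeq2, the tool of the study, 2 with the replicate number as a block and 6 with total count scaling. The number called depended on single controls. It was 2 of 8, Serpina3n and Serpinb1c, without Myh6-ctl replicate 1, and 4 of 8 without Myh6-ctl replicate 3. All genes called fell there from 2805 to 798 and to 1637. They numbered 1755 without Myh6-ctl replicate 2 and 4269, 982 and 969 without Myh6-tg replicates 1, 2 and 3. With DESeq2 they were 3870 of 20014 tested, with all 12 hearts in one fit 5049, with the replicate block 3204 and with total count scaling 4007. Each list count under these settings stands beside these numbers.

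Serpina3n is a secreted inhibitor of serine proteases, among them granzyme B and leukocyte elastase, and is known as an acute phase gene. Its level was 7.004 ± 2.24 CPM (SD, n = 3) in EIIa-ctl hearts, with 6.95, 9.27 and 4.79 in replicates 1 to 3. The EIIa-tg hearts had 226, 49.4 and 245 CPM, all above their controls, replicate 2 being the lowest. Myh6-ctl hearts, at 50.1, 46.4 and 56.6 CPM, lay around the lowest EIIa-tg heart. Myh6-tg hearts had 873, 595 and 707 CPM. The log2 fold change was 3.85 (SE 0.24, adjusted p = 0.000845) in Myh6-tg hearts, a rise of 14.4-fold that was called under every alternative run, and it was 4.63 (SE 0.59) in EIIa-tg hearts. Serpina3n is one of 10 Serpina3 genes counted together on chromosome 12, of which it held between 82.3% and 98.8% of the counts in every heart.

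Serping1, the inhibitor of the complement proteases C1r and C1s and of plasma kallikrein and factor XII, had 144, 160 and 131 CPM in EIIa-ctl hearts. It had 349, 222 and 394 CPM in EIIa-tg hearts, where replicate 2 was again the lowest and still above all controls. Myh6-ctl hearts held 239, 244 and 215 CPM and Myh6-tg hearts 391, 453 and 435, which did not overlap. In Myh6-tg hearts Serping1 rose by a log2 fold change of 0.90 (SE 0.18, adjusted p = 0.0165), and in EIIa-tg hearts the change was 1.16 (SE 0.20). The Myh6-tg call was lost without Myh6-ctl replicate 1 or 3 or Myh6-tg replicate 2 or 3, with adjusted p between 0.0582 and 0.0788 and a log2 fold change of 0.83 to 0.92. Among 10376 genes with a mean of at least 5 CPM, Serping1 was the second most like Serpina3n over the 12 hearts, with a Pearson correlation of log2 CPM of 0.98. These points share the 4 groups and their differences.

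Serpine2 (protease nexin-1), an inhibitor of thrombin, urokinase and plasmin that binds to the cell surface, differed between replicates of one group. Its level was 28.4, 30.8 and 25.8 CPM in EIIa-ctl hearts and 82.2, 47.1 and 105 CPM in EIIa-tg hearts, which did not overlap. In the Myh6 model the controls had 40.7, 34.5 and 38.5 CPM. Myh6-tg replicates 2 and 3 had 107 and 108 CPM, but replicate 1 had 35.7 CPM, within the range of the controls. Serpine2 was at a log2 fold change of 1.16 (SE 0.39, adjusted p = 0.0757) in Myh6-tg hearts and was not called. Without Myh6-tg replicate 1 it was 1.52 (adjusted p = 0.00105), and it was 1.47 (SE 0.25) in EIIa-tg hearts.

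Serpinf1 encodes PEDF, a secreted serpin without inhibitory activity that is known for restraining blood vessel growth and for binding collagen. EIIa-ctl hearts had 38.8, 50.6 and 38.8 CPM, and EIIa-tg hearts had 53.4, 68.0 and 90.6. Myh6-ctl hearts had 57.1, 66.6 and 56.0 CPM, and Myh6-tg hearts had 123, 282 and 302, with replicate 1 the lowest. It rose in Myh6-tg hearts by a log2 fold change of 2.00 (SE 0.34, adjusted p = 0.0101), against 0.73 (SE 0.19) in EIIa-tg hearts. Without Myh6-ctl replicate 1 it was 1.96 with an adjusted p of 0.0538.

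Fibroblasts are a known source of both Serpine2 and Serpinf1. The summed fibroblast markers came to 1302 to 1658 CPM in Myh6-ctl hearts, to 2323 and 2471 CPM in Myh6-tg replicates 2 and 3, and to 1015 CPM in Myh6-tg replicate 1. In the EIIa model the sum was 978 to 1171 CPM in controls and 1520 to 2229 CPM in EIIa-tg hearts. The heart with the low sum, Myh6-tg replicate 1, had a Serpine2 level within the controls and a Serpinf1 level above them. Of the 6 markers, 1 was called higher in Myh6-tg hearts, Pdgfra, and 2 in EIIa-tg hearts, and none of them was at 0. The Myh6-tg number was 0 without Myh6-tg replicate 3, 3 without Myh6-tg replicate 1 and 2 with the replicate block. The markers did not move together in Myh6-tg hearts, where their median log2 fold change was -0.02. Dcn, at 1511 CPM the bulk of the sum, was at 0.64 (adjusted p = 0.257), while Lum was at -0.79 (adjusted p = 0.198), Ddr2 at -0.60 (adjusted p = 0.154) and Dpt at -0.33 (adjusted p = 0.718). Dcn was also the gene most like Serpine2 over the 12 hearts (r = 0.97), and Cilp, a matrix gene, the one most like Serpinf1 (r = 0.99). The part of fibroblast number in these changes was not tested.

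Serpinh1 was the only member that fell. It encodes Hsp47, a serpin without inhibitory activity that binds procollagen in the endoplasmic reticulum and escorts it to the Golgi. Myh6-ctl hearts had 262, 239 and 221 CPM, and Myh6-tg hearts had 97.8, 153 and 147 CPM, with no overlap and replicate 1 the lowest. Serpinh1 fell by 0.84 (SE 0.22, adjusted p = 0.0379) on the log2 scale. The call was lost without any 1 of the 6 hearts but Myh6-tg replicate 1, with adjusted p between 0.0747 and 0.127. When counts were scaled to the total of each heart, the median of all genes moved from 0.03 to 0.43 and Serpinh1 was at -0.42 (adjusted p = 0.253), still lower and no longer called. On the FPKM scale the groups overlapped, with 48.7 to 87.3 in Myh6-tg and 86.3 to 103 in Myh6-ctl hearts. In the EIIa model Serpinh1 had 229, 285 and 233 CPM in controls and 178, 250 and 210 CPM in EIIa-tg hearts, which overlapped, with a log2 fold change of -0.22 (SE 0.15).

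Few genes for collagens and their folding fell with Serpinh1 in Myh6-tg hearts. Of 28 genes of this list, 14 rose and 1 fell (median log2 fold change 1.00), where 18.3% of all genes were called and 8.96% were called higher. Col5a2 rose by 3.10 (SE 0.34, adjusted p = 0.0027), Col8a1 by 2.61 (SE 0.38, adjusted p = 0.0064) and Col1a1 by 2.11 (SE 0.29, adjusted p = 0.00515), all on the log2 scale. These encode chains of fibrillar collagen V, of network-forming collagen VIII and of collagen I. The gene that fell was P4ha1, a prolyl 4-hydroxylase subunit, at -1.03 (adjusted p = 0.0249), named after its value was seen. Without one of the hearts the number called ran from 7, without Myh6-ctl replicate 1 or 2 or Myh6-tg replicate 3, to 20 without Myh6-tg replicate 1, and it was 8 without Myh6-ctl replicate 3 or Myh6-tg replicate 2. The genes most like Serpinh1 over the 12 hearts were Rprd1a (r = 0.97), 3830406C13Rik (r = 0.97) and Ppid (r = 0.97), none of them on this list.

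Serpinb1a inhibits the neutrophil proteases elastase, cathepsin G and proteinase 3. EIIa-ctl hearts had 4.21, 6.90 and 4.79 CPM and EIIa-tg hearts 12.3, 9.98 and 17.9, which did not overlap. Myh6-ctl hearts had 3.24, 9.31 and 8.53 CPM. Myh6-tg replicate 1 had 139 CPM, and replicates 2 and 3 had 31.0 and 29.9, all above every control. It rose by a log2 fold change of 3.26 (SE 0.71, adjusted p = 0.0198), and of 2.13 (adjusted p = 0.00973) without Myh6-tg replicate 1. The call was lost without any 1 of the Myh6-ctl hearts, with adjusted p between 0.0596 and 0.0753. In EIIa-tg hearts the log2 fold change was 1.34 (SE 0.26). The genes most like Serpinb1a were Masp1, Lgmn and Ahnak2 (each r = 0.98).

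Serpinb1c, the paralog of Serpinb1a, is much less studied and was counted in few reads in EIIa-ctl hearts. It had 10, 14 and 6 counts there, or 0.230, 0.367 and 0.164 CPM, and 192, 139 and 165 counts in EIIa-tg hearts, or 4.71, 2.80 and 3.66 CPM. Myh6-ctl hearts had 0.385, 1.51 and 1.63 CPM and Myh6-tg hearts had 9.45, 6.64 and 6.003, again without overlap. The log2 fold change was 2.66 (SE 0.53, adjusted p = 0.0153) in Myh6-tg hearts and was called under every alternative run. It was 3.86 (SE 0.40) in EIIa-tg hearts. The genes most like Serpinb1c over the 12 hearts were Myc and Junb, which encode transcription factors, and Sprr1a, with r of 0.97, 0.97 and 0.96.

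The share of Serpinb1c in the reads on the Serpinb1 genes is given as a description, since Serpinb1c was chosen on its level in EIIa-tg hearts. It held between 3.24% and 5.13% of the counts on Serpinb1a, Serpinb1b and Serpinb1c in EIIa-ctl hearts, and between 16.9% and 27.7% in EIIa-tg hearts. The highest EIIa-ctl heart, at 5.13%, had an exact (Clopper-Pearson) 95% binomial interval of 2.49% to 9.23%. The lowest EIIa-tg heart, at 16.9%, had one of 14.6% to 19.4%. These intervals cover counting error only. In Myh6-ctl hearts the share was 10.6%, 13.8% and 15.8%. In Myh6-tg hearts it was 17.5% and 16.6% in replicates 2 and 3 and 6.37% in replicate 1, the heart with the most Serpinb1a, so that the Myh6 groups overlapped. Serpinb1b had at most 16 counts in any heart, and its log2 fold change in Myh6-tg hearts was 2.17 (SE 1.01, adjusted p = 0.174).

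**Figure D2:**
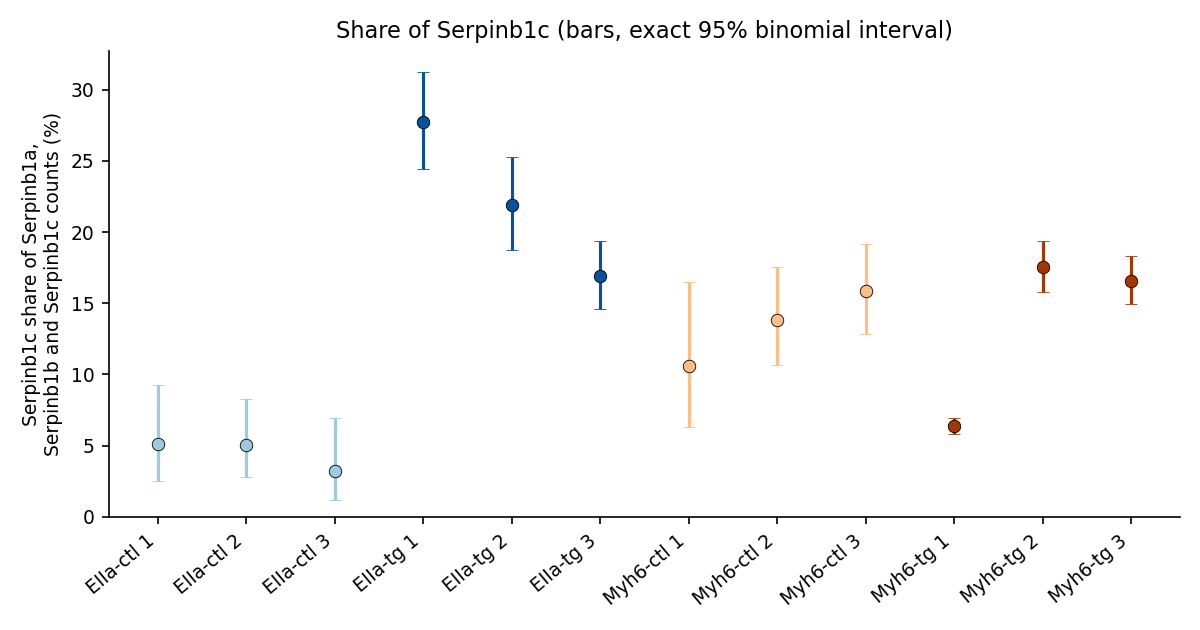
Share of Serpinb1c in percent of the counts on Serpinb1a, Serpinb1b and Serpinb1c, by heart, with exact 95% binomial intervals that cover counting error only. The EIIa-ctl hearts sit at 3.24% to 5.13% and the EIIa-tg hearts at 16.9% to 27.7%, and Myh6-tg replicate 1 sits at 6.37%, below the other Myh6 hearts.

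Serpinb6a, an intracellular inhibitor of cathepsin G and trypsin-like proteases, was abundant in every heart. It had 99.0, 112 and 103 CPM in EIIa-ctl hearts and 145, 123 and 151 in EIIa-tg hearts, which did not overlap. Myh6-ctl hearts had 129, 159 and 145 CPM, within and just above the EIIa-tg range, and Myh6-tg hearts had 500, 303 and 309. Serpinb6a rose by a log2 fold change of 1.38 (SE 0.25, adjusted p = 0.0121) in Myh6-tg hearts, and its change was 0.42 (SE 0.11) in EIIa-tg hearts. Without Myh6-ctl replicate 1 it was 1.30 with an adjusted p of 0.0578. The neighbouring paralog Serpinb6b, named after its values were seen, was at 0.11 (SE 0.34, adjusted p = 0.852) in Myh6-tg hearts. The genes most like Serpinb6a were Gdi2 (r = 0.99), Dnajb6 (r = 0.98) and Tspo (r = 0.98).

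Markers of leukocytes, in which Serpinb1a and Serpinb6a are known, were uneven between hearts. The macrophage markers summed to 656 CPM in Myh6-tg replicate 1, the heart with the most Serpinb1a and Serpinb6a, to 312 and 313 CPM in replicates 2 and 3 and to 212 to 341 CPM in Myh6-ctl hearts. They did not move together in Myh6-tg hearts, where 4 of 6 had a log2 fold change above 0, the largest Cd163 at 1.42 (adjusted p = 0.105). Adgre1 was lower without overlap, at -0.60 (adjusted p = 0.152), and Fcgr1 was at -0.33 (adjusted p = 0.527). None of the 6 macrophage markers was called in Myh6-tg hearts by edgeR, with 3 at an unadjusted p under 0.05 and 2 called by DESeq2, while 6 of 6 were called higher in EIIa-tg hearts, with sums of 239 to 316 against 127 to 180 CPM. That number was 0 without EIIa-ctl replicate 1 or 3 or EIIa-tg replicate 1 or 3, with the replicate block and with all 12 hearts in one fit. The 10 neutrophil markers summed to 2.21 to 2.81 CPM in EIIa-ctl, 7.11 to 7.42 in EIIa-tg, 3.18 to 18.5 in Myh6-ctl and 7.92 to 26.6 CPM in Myh6-tg hearts, the highest again in replicate 1. Of 6 neutrophil markers tested, 2 rose in EIIa-tg hearts and 0 were called in Myh6-tg hearts by edgeR or DESeq2, with 0 at an unadjusted p under 0.05 and 1 called without Myh6-ctl replicate 1. Elane, the neutrophil elastase gene, had 0 counts in all 12 hearts, Ctsg, for cathepsin G, at most 4 and Mpo at most 12. Prtn3, for proteinase 3, reached 78 counts, S100a8 139 and S100a9 327, each in Myh6-tg replicate 1. The part of leukocyte number in the serpin changes was not tested.

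**Figure D3:**
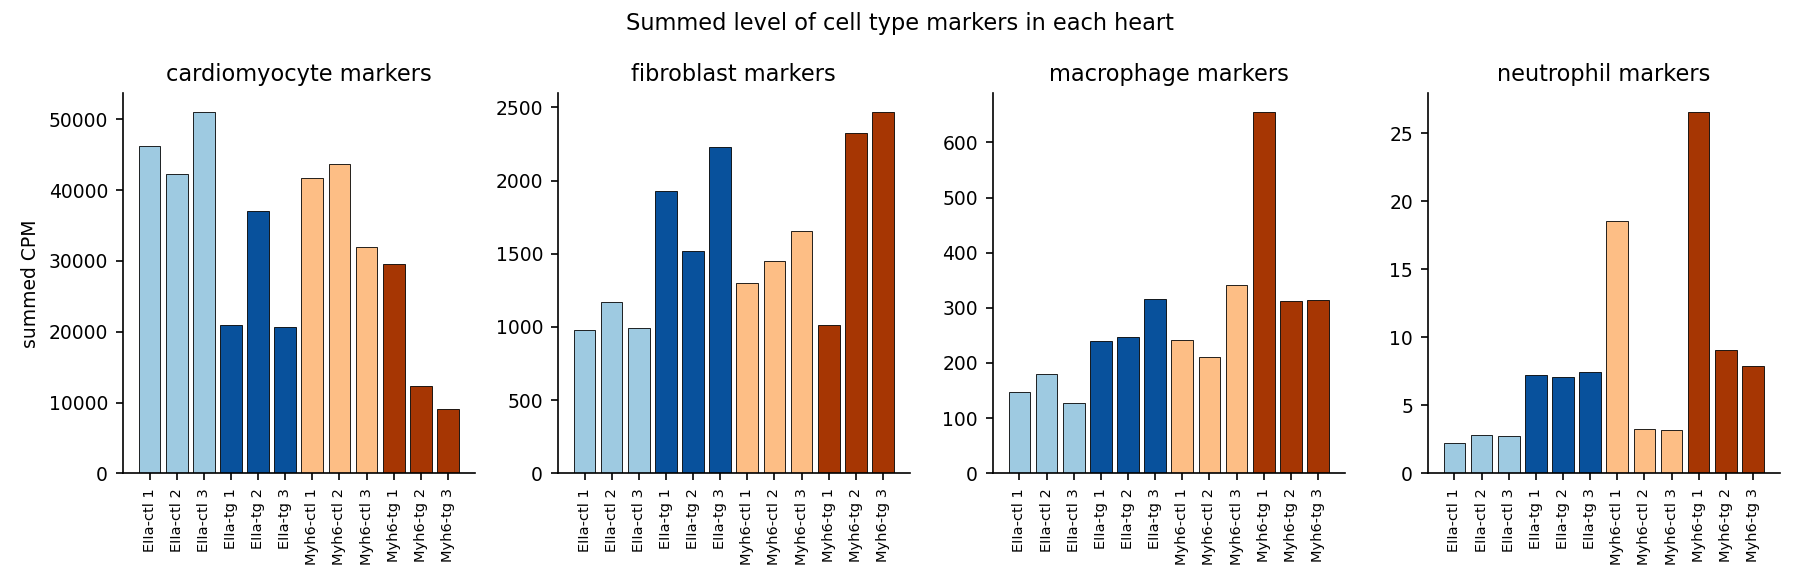
Summed CPM of the markers of cardiomyocytes, fibroblasts, macrophages and neutrophils in each of the 12 hearts, with bars from 0. Fibroblast markers reach 2471 CPM and are at 1015 CPM in Myh6-tg replicate 1, while macrophage markers are highest in that heart at 656 CPM.

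The summed cardiomyocyte markers were lower in both transgenic groups. They came to 9120 to 29582 CPM in Myh6-tg and 32038 to 43630 CPM in Myh6-ctl hearts, with 5 of 8 markers called lower, and to 20652 to 37089 CPM in EIIa-tg and 42302 to 51104 CPM in EIIa-ctl hearts, with 2 of 8 called lower. The Myh6-tg number was 1 without Myh6-tg replicate 2, 2 without Myh6-ctl replicate 1 and 3 without Myh6-ctl replicate 3 or Myh6-tg replicate 3. Tnnt2, for cardiac troponin T, did not share the direction, at a log2 fold change of 0.44 (adjusted p = 0.559) in Myh6-tg and 0.09 (adjusted p = 0.691) in EIIa-tg hearts. Actc1 at -0.71 (adjusted p = 0.351) and Ryr2 at -0.28 (adjusted p = 0.79) overlapped between the Myh6 groups. The mitochondrial genome's genes took 15.5% to 18.6% of the counts in Myh6-tg and 31.8% to 38.3% in Myh6-ctl hearts. The part of these shifts in the members' changes was not tested. Members remained on their side of the threshold when the mitochondrial genes were removed.

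Across both models, 7 of the 8 members were higher in every EIIa-tg heart than in any EIIa-ctl heart, and Serpinh1 overlapped. This was so for 20.0% of all genes tested, and nothing is read from the count, since the members were chosen from this contrast. The change in Myh6-tg minus the change in EIIa-tg hearts was 1.91 (SE 0.80) for Serpinb1a, 1.26 (SE 0.41) for Serpinf1 and 0.95 (SE 0.27) for Serpinb6a on the log2 scale. It was -1.21 (SE 0.68) for Serpinb1c, -0.80 (SE 0.63) for Serpina3n and -0.62 (SE 0.27) for Serpinh1. For Serpine2 it was -0.32 (SE 0.51) and for Serping1 -0.27 (SE 0.27). These differences were not tested.

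**Figure D4:**
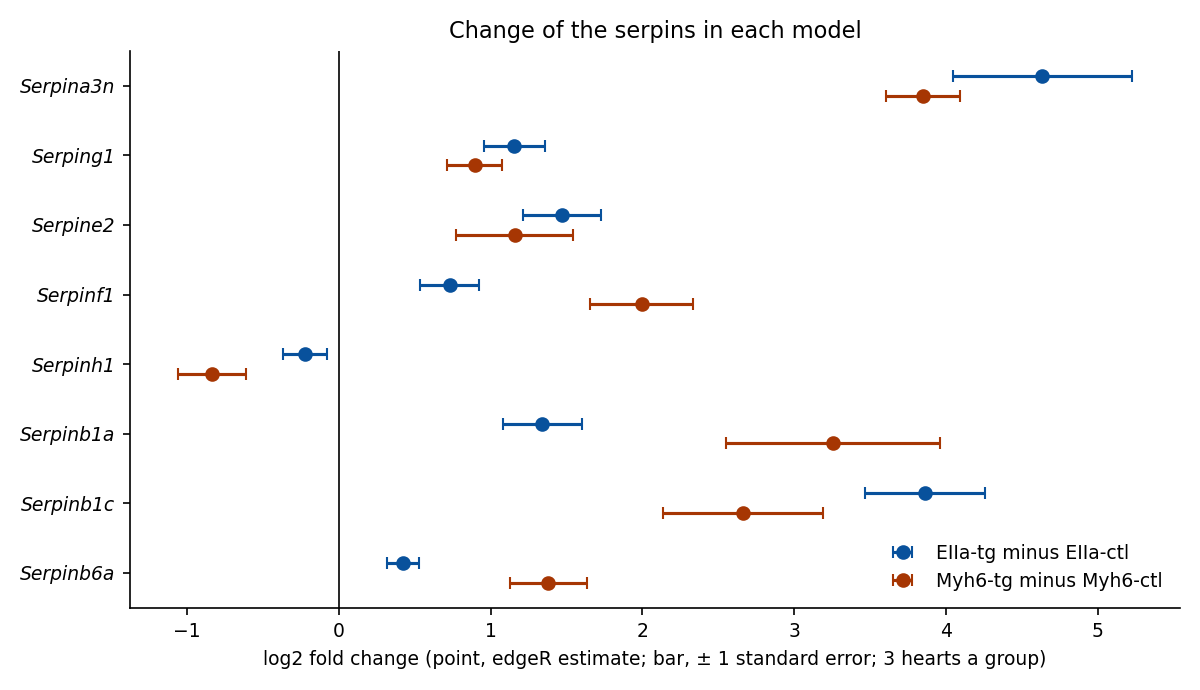
Log2 fold change of each serpin in EIIa-tg minus EIIa-ctl hearts and in Myh6-tg minus Myh6-ctl hearts, with 1 standard error on either side and 3 hearts a group. Serpina3n is the largest rise in each model, at 4.63 and 3.85, and Serpinh1 is the only member below 0 in each, at -0.22 and -0.84.

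The levels in the control hearts are given as a description. Myh6-ctl hearts, older, oil-injected and of another Cre line than EIIa-ctl hearts, had higher levels than every EIIa-ctl heart for 6 of the 8 members, where 8.34% of all genes tested did so. Nothing is read from this count, since the members were chosen with the EIIa values in view. Age, oil and Cre line cannot be told apart. Serpina3n was 7.34-fold and Serpinb1c 4.61-fold higher in Myh6-ctl hearts, with log2 differences of 2.88 (SE 0.24) and 2.21 (SE 0.68). The other 4 that did not overlap, Serping1, Serpinf1, Serpinb6a and Serpine2, were at 0.69, 0.50, 0.47 and 0.43. Serpinb1a at 0.42 and Serpinh1 at -0.04 overlapped.

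Of the 54 other Serpin genes, 17 had no count in any heart, and few were high enough to test. In Myh6-tg hearts 5 of 15 tested were called, all higher, and 2 of them were DEGs, where 18.3% of all genes were called, 8.96% called higher and 3.97% DEGs. Serpinb9b, of a group known for inhibiting granzyme B, had 0.136, 0.910 and 0.208 CPM in Myh6-ctl hearts and 23.9, 14.2 and 12.1 CPM in Myh6-tg hearts, a log2 fold change of 5.37 (SE 0.70, adjusted p = 0.00456). Serpina3c rose by 2.09 (SE 0.51, adjusted p = 0.0287) and Serpina3i by 4.15 (SE 1.09, adjusted p = 0.0366) on the log2 scale, and both are close copies in the Serpina3 cluster. The Serpina3i call was lost without any 1 of the 6 hearts and the Serpina3c call without any but Myh6-ctl replicate 1 or Myh6-tg replicate 1. Serpina3m, named after its values were seen, had no count in Myh6-ctl hearts and 72, 77 and 69 in Myh6-tg hearts (adjusted p = 0.00561). This is at least 22.0-fold higher when each control is set to 3 counts. Of its 50-base stretches 19.1% occurred unchanged in other Serpina3 genes, Serpina3n among them, and of its 150-base stretches 0.331% did. At 50 bases the share was 15.4% for Serpina3i and 4.25% for Serpina3c. Whether reads of other genes were counted on these genes was not tested. Without Myh6-tg replicate 1 the number called was 8, and it was 3 without Myh6-ctl replicate 2 or 3 or Myh6-tg replicate 2 or 3.

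In EIIa-tg hearts 3 of 11 other serpins tested were called, all higher. Of all genes tested 17.0% were called in either direction, and 1289 of 14908 were called higher. Among them Serpinb9 rose by 0.58 (SE 0.11, adjusted p = 0.0203) and Serpina3g by 2.01 (SE 0.55, adjusted p = 0.0429). As for every list in this model, these calls were lost without single hearts.

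Proteases and receptors that the members act on did not move as one group. In the plasminogen and thrombin system, which holds targets of Serpine2, 3 of 14 tested genes rose and 3 fell in Myh6-tg hearts. Of all genes tested 18.3% were called in that comparison. The thrombin receptor gene F2r rose by 1.75 (SE 0.18, adjusted p = 0.00239), while Thbd, for the thrombin-binding thrombomodulin, was at -1.51 (SE 0.34, adjusted p = 0.0224) and Vldlr, for a receptor that clears serpin complexes, at -1.01 (SE 0.20, adjusted p = 0.0146). In EIIa-tg hearts 2 of 13 were called, near the 17.0% called of all genes tested. Lrp1, for a receptor that clears serpin complexes, was at 0.80 (adjusted p = 0.0262), and Vtn, for the adhesive protein vitronectin, was at -0.59 (adjusted p = 0.0271). Both were also called in Myh6-tg hearts, Lrp1 at 1.19 (adjusted p = 0.027) and Vtn at -1.28 (adjusted p = 0.0233). Without Myh6-ctl replicate 1 the Myh6-tg number was 1, without Myh6-tg replicate 2 or 3 it was 2, and without Myh6-ctl replicate 2 or 3 it was 3.

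The list of complement and contact genes holds the Serping1 targets C1r and C1s and other genes of these cascades, such as C3 and C4b, that are not its targets. Its contact genes Klkb1, for plasma kallikrein, F12, F11, Kng1 and Kng2 were too low to test in either model. The counts below are therefore of complement genes. In EIIa-tg hearts 8 of 11 tested genes rose, where 17.0% of all genes were called in either direction and 1289 of 14908 higher. Among the 8 were C3 at 2.29 (SE 0.27, adjusted p = 0.0135), C4b at 1.91 (SE 0.31, adjusted p = 0.0166) and C1s1 at 0.85 (SE 0.14, adjusted p = 0.0166). In Myh6-tg hearts 1 of 10 rose, near the 8.96% of all genes called higher. The gene was Masp1, for a protease of the lectin pathway, at 2.71 (SE 0.49, adjusted p = 0.0119). The number there was 2 with the replicate block or without Myh6-tg replicate 1, and 0 without Myh6-ctl replicate 1. It was 6 with total count scaling, which moves the median of all genes up as given above. C4b was at 1.09 (SE 0.39, adjusted p = 0.0922) and C1ra at 0.53 (SE 0.17, adjusted p = 0.0672) in Myh6-tg hearts. The difference between the models in this list was not tested.

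Genes of the acute phase and of STAT3 signalling, the company that Serpina3n is known in, were counted in both models. In EIIa-tg hearts 11 of 19 rose, where 17.0% of all genes were called in either direction and 1289 of 14908 higher. The STAT3 feedback gene Socs3 was at 1.73 (SE 0.27, adjusted p = 0.0166), the transcription factor gene Cebpd at 1.30 (SE 0.19, adjusted p = 0.0157) and the haptoglobin gene Hp at 3.84 (SE 0.64, adjusted p = 0.0166). In Myh6-tg hearts 5 of 21 rose, where 8.96% of all genes were called higher, with Lcn2, an iron-sequestering lipocalin, at 3.53 (SE 0.39, adjusted p = 0.00283), Lbp, for the lipopolysaccharide-binding protein, at 1.70 (SE 0.17, adjusted p = 0.00222) and Timp1, a metalloprotease inhibitor, at 2.02 (SE 0.30, adjusted p = 0.0068). Cebpd was also called there, at 1.49 (adjusted p = 0.0177), while Socs3 at 1.08 (adjusted p = 0.187) and Hp at 3.54 (adjusted p = 0.0594) were not. Lcn2 at 2.40 (adjusted p = 0.0216) and Timp1 at 3.36 (adjusted p = 0.0178) were also called in EIIa-tg hearts, and Lbp at 0.83 (adjusted p = 0.0577) was not. The number in Myh6-tg hearts was 3 without Myh6-tg replicate 2 or 3, where 982 and 969 of all genes were called against 2805. It was 10 with DESeq2 and with all 12 hearts in one fit, where 3870 and 5049 of all genes were called. The difference between the models was not tested.

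Each count of the next lists stands beside 17.0% of all genes tested called in EIIa-tg and 18.3% in Myh6-tg hearts, in either direction. Called higher were 1289 of 14908 genes in EIIa-tg hearts and 8.96% in Myh6-tg hearts. Of the leukocyte granule proteases, 2 of 6 tested rose in EIIa-tg hearts, the mast cell genes Cma1 at 1.39 (SE 0.30, adjusted p = 0.0246) and Tpsb2 at 1.87 (SE 0.41, adjusted p = 0.0251). In Myh6-tg hearts edgeR called 0 of 6, with 1 at an unadjusted p under 0.05 and 1 called by DESeq2, and it called 3 without Myh6-tg replicate 1. Of 12 cathepsins and caspases, 3 rose and 1 fell in Myh6-tg hearts. Ctsk, for a collagen-cutting cathepsin, rose by 2.11 (SE 0.30, adjusted p = 0.00575), Ctsl by 1.58 (SE 0.22, adjusted p = 0.00561) and Ctsz by 1.00 (SE 0.17, adjusted p = 0.0101). Ctsc, whose product activates granule proteases, was at -0.78 (adjusted p = 0.0241), named after its value was seen, and 2 were called without Myh6-ctl replicate 1. In EIIa-tg hearts 5 of 12 rose, with Ctss at 1.504 (SE 0.31, adjusted p = 0.0222). Also called higher there were Ctsz at 0.78 (adjusted p = 0.0316), Ctsl at 0.40 (adjusted p = 0.0451) and Ctsc at 0.42 (adjusted p = 0.0412). Of 5 candidate receptors of PEDF edgeR called 0 in Myh6-tg hearts, with 2 at an unadjusted p under 0.05, 0 called by DESeq2, and 1 with the replicate block or without Myh6-tg replicate 1. In EIIa-tg hearts it called 1, the lipase gene Pnpla2 at 0.61 (SE 0.17, adjusted p = 0.0482). In the EIIa-tg comparison 1 collagen list gene rose, P3h2 at 2.59 (SE 0.33, adjusted p = 0.0135), and 2 fell, Col4a1 at -0.64 (adjusted p = 0.0391) and Col4a2 at -0.57 (adjusted p = 0.0384). Col4a1 and Col4a2 were called higher in Myh6-tg hearts, at 1.46 (adjusted p = 0.0272) and 1.91 (adjusted p = 0.00962). P3h2, at 1.60 (adjusted p = 0.113), was not called there.

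**Figure D5:**
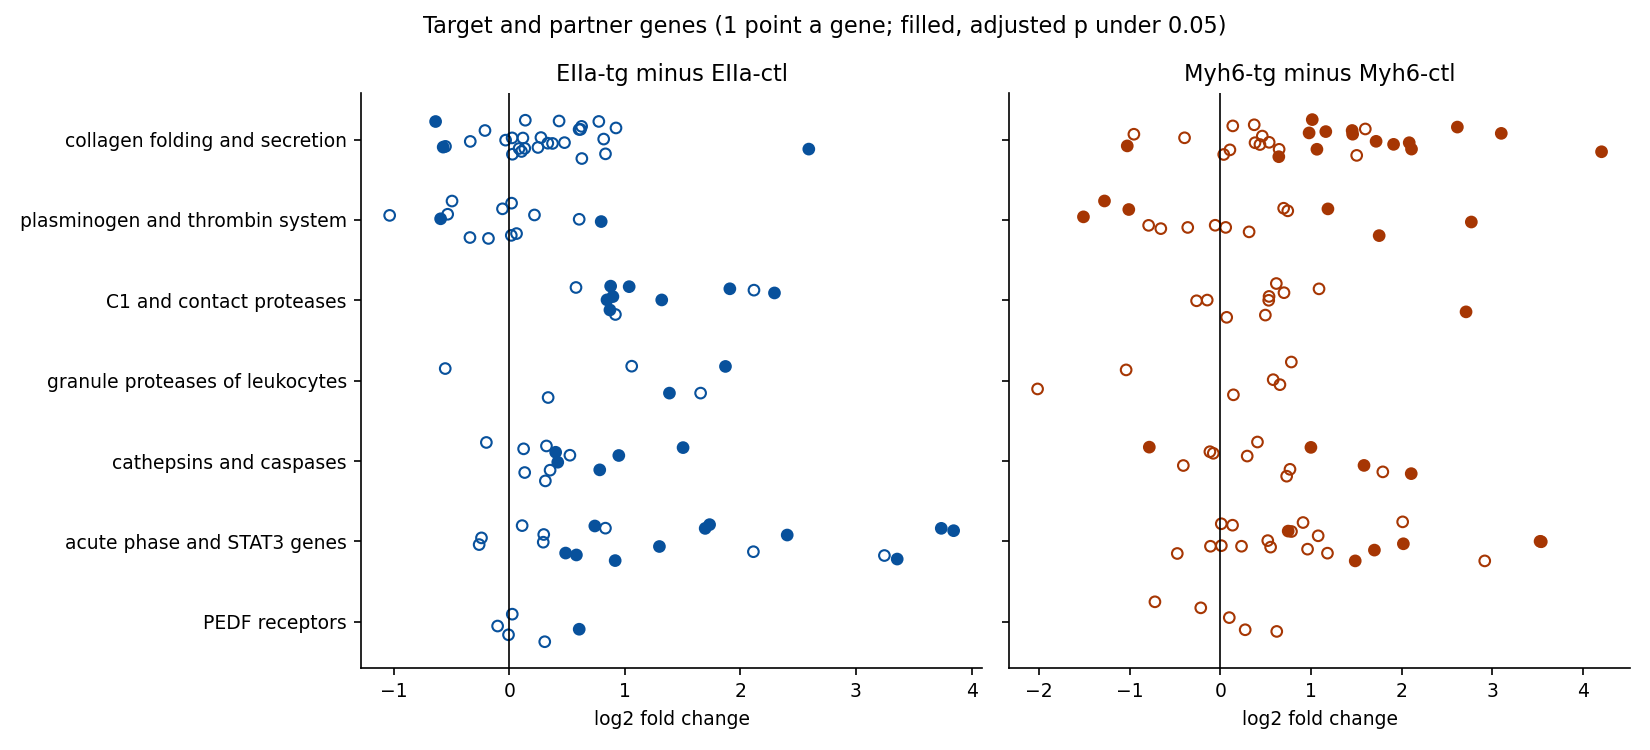
Log2 fold changes of the genes of 7 target and partner lists in each model, 1 point a gene, with filled points at an adjusted p under 0.05. In Myh6-tg hearts 14 genes of the list for collagens and their folding are filled to the right of 0, not all of them collagens. In EIIa-tg hearts 8 genes of the complement and contact list are.

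The members' promoters were searched for TTCNNNGAA, the letters that STAT factors are known to bind, which read alike on both strands. Promoter windows of 300 bases, 250 before to 50 after the start of the gene, came from RefSeq (GRCm38.p6) and matched 6 of the 8 members. The letters occurred in 1 of the 6, Serpinb6a, and in 8.3% of all 32851 windows. Both matches in Serpinb6a are printed with the matched letters in capitals, 5′ to 3′ on the minus strand, the first starting 77 bases before the gene's start at chr13:34002852-34002881 and the second 20 bases after it at chr13:34002755-34002784.
Serpinb6a, first match: gcttttcgatTTCCGGGAAcgtttgaagtc
Serpinb6a, second match: cctccgccccTTCCGGGAAaccagcttctg
A match of letters is a description and not a binding site, and its absence from the other windows says only that these letters are not there.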

How the data were processed

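RNA of 12 hearts was measured, 3 in each group. The authors deposited raw counts of reads per gene, not normalized, and FPKM values, scaled by the authors to transcript length and library size. The reads were 150-base pairs mapped to GRCm38 with Hisat2. The submitters' processing notes name HISAT2 2.0.4 and StringTie 2.2.1, and the counting program and annotation are not given in the sources used here. Strand was not stated, so antisense reads cannot be separated. By title, 3 hearts are EIIa-tg, although replicates 2 and 3 have genotype labels of another name. The extraction protocol names brain, while the labels name heart.

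Genes were kept by filterByExpr, scaled by TMM factors and tested by edgeR 4.0.16 (R 4.3.3, glmQLFit, then glmQLFTest) in the 6 hearts of a comparison, adjusted by Benjamini-Hochberg over all genes tested. Called means an adjusted p under 0.05. No labels tie single hearts to litters or cages, so p-values measure the spread between these hearts. No 2 hearts of a group agreed within sampling noise. Same-numbered Myh6 hearts deviated together, with correlations of 0.281, 0.184 and 0.170 between their deviations from the group means over 15994 genes. No label gives a pairing by number, and replicate 1 is also the only heart of each group with Y-linked counts above 2. Whether the numbers pair these hearts was not tested, and the main tests used the group only. Levels in the text are CPM scaled by TMM over 12 hearts. Positions came from GENCODE M21 by Ensembl identifier, which held 22022 of 22036. Sequences were read from its transcripts and aligned with Biopython 1.88. The tests were checked on simulated data.

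The members and lists were chosen with earlier results of these data known. Named were the members, other serpins called with a mean of at least 1 CPM, Serpinb1b, the 3 genes of lowest p in each partner list and model with a mean of at least 1 CPM, the 3 genes most like each member, markers and label checks. An item that the rule names is not reported here. Alternatives were DESeq2 1.42.0, RLE factors, other filters, all hearts in one fit, the replicate block, removal of mt- genes or of NewGene loci, a term for Y-linked counts, limma 3.58.1 on log2(FPKM + 1) and log2(FPKM + 0.1), each heart left out, and, added after seeing the data, total count scaling.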

Additional observations from a re-analysis of the deposited data

How the results depend on the processing

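Of the members' fold changes in Myh6-tg hearts under the alternatives, 128 values kept direction and side of the threshold, 18 were no longer called and 6 became called, and none changed direction. In EIIa-tg hearts 146 values stayed within the spread between replicates and 6 moved beyond it. The number of members called ranged from 2 to 8 with hearts left out. The number of DEGs among them was 5 with DESeq2 and with all 12 hearts in one fit, 4 without a filter on low counts and with limma on unfiltered FPKM, 3 with a term for Y-linked counts, 2 with a filter of CPM of at least 1, with the replicate block and without NewGene loci, and 6 with limma on log2(FPKM + 1), on log2(FPKM + 0.1) and with total count scaling. It ranged from 1 to 5 with hearts left out. Serpine2 was not called in 8 of the 13 alternatives that kept all hearts and was called in the others, among them DESeq2 (adjusted p = 0.0175). The cause was not tested.

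Other serpins called in Myh6-tg hearts numbered 9 with DESeq2 and 3 to 8 with hearts left out. In EIIa-tg hearts they numbered 6 with DESeq2, 0 with all 12 hearts in one fit, 0 with the replicate block, 0 with limma on unfiltered FPKM, and 0 to 6 with hearts left out. Same-numbered EIIa hearts did not deviate together, with correlations of 0.0482, -0.0725 and -0.0554, and the block there left 1 gene called in the whole table. The block changed no other call of a member in Myh6-tg hearts.

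Direction changed for 3 partner genes. In Myh6-tg hearts Tpsb2 was at -0.32 and Cpa3 at -0.38 without replicate 2 of that group, and with hearts left out they ranged from -0.32 to 1.36 and from -0.38 to 1.23. Lrp6 in EIIa-tg hearts was at 0.086 with limma on log2(FPKM + 1), filtered or not, at 0.11 on log2(FPKM + 0.1) and at 0.10 with total count scaling. The cause was not tested.

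Depth limited Serpinb1c and the low serpins, with 6 to 14 counts of Serpinb1c in EIIa-ctl hearts.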
